A study of Mus musculus with 8 samples.

Results

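The genes described here are 10 genes of DNA replication and cell proliferation, Mcm2, Mcm3, Mcm4, Mcm5, Mcm6, Mcm7, Pcna, Mki67, Top2a and Cdc6, taken by gene symbol from a table of 23983 genes, in which all 10 were found. The table holds RNA-seq expression values of whole testis from wild-type C57BL/6J mice, an inbred laboratory strain, at 3 postnatal ages (d12, d16, d24) and in the adult. All 4 groups are described as alike in strain, genotype and tissue and as differing by age, and no agent was given. Each group is 1 library, for which the labels do not say how many animals were pooled. Age therefore cannot be told apart from other differences between the libraries. ChIP-seq of H3K27Ac, a mark of active promoters and enhancers, belongs to the same series (4 samples) and is not analysed here.

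A cell that divides, or that enters meiosis, copies its DNA once in S phase. Cdc6 helps to load the ring-shaped helicase built from Mcm2 to Mcm7 onto replication origins, the helicase opens the DNA, and the sliding clamp Pcna holds the polymerases on it. Mki67, the Ki-67 protein that coats mitotic chromosomes, and Top2a, the topoisomerase that untangles sister DNA, are most abundant late in the cycle and are widely used as proliferation markers. In the testis the spermatogonia divide by mitosis, spermatocytes pass a last S phase before the long meiotic prophase, and spermatids do not replicate DNA. Germ cells first pass through these steps as a wave after birth. Spermatocytes therefore appear in the testis before spermatids, and the makeup of a whole testis differs between the ages.

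Expression is given as FPKM, the number of fragments per kilobase of transcript, scaled for each library. It is per length and so allows genes to be compared. From the low values, 1 fragment on a transcript of 1 kb was worth 0.0455 to 0.112 FPKM, and 8907236 to 23681243 fragments lay on genes in a library. Values in parentheses are exact 95% intervals from the fragments (Poisson for a level, Clopper-Pearson for a ratio), which cover counting error only. With 1 library per stage there is no spread between animals and no test between stages. A gene is called lower or higher here when log2(FPKM + 0.1) differed by at least 2-fold, and the same call was made for the 13901 genes whose mean over the libraries reached 1 FPKM. The marker genes of pachytene spermatocytes summed to 66.1 FPKM at d12 and 4400 FPKM in the adult, and those of elongating spermatids to 13.2 FPKM at d12, then 4.45 at d16, 2363 at d24 and 26392 in the adult.

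From d12 to adult testis 6 of the 10 genes fell by at least 2-fold, namely Mcm2, Mcm3, Mcm4, Mcm5, Mcm6 and Mki67, and 0 rose by this much. Among all genes tested 23.1% fell and 35.7% rose by at least 2-fold. At any size 8 of the 10 were lower, against 45.7% of all genes. The median log2 change of the 10 genes was -1.47, and that of all genes was 0.20. The largest step lay between d16 and d24, where 3 of the 10 fell at least 2-fold (Mcm2, Mcm4 and Mcm5) against 8.45% of all genes, and 0 rose, against 27.5%. At any size 7 of the 10 were lower in this step (45.3% of all genes), and the median log2 change was -0.80 against 0.13. From d12 to d16 0 of 10 fell (3.67% of all genes) and 0 rose (12.6%) by at least 2-fold. At any size 7 were lower (49.5% of all genes), with a median log2 change of -0.24 against 0.00. From d24 to adult 0 of 10 fell (2.2% of all genes) and 0 rose (11.4%) by at least 2-fold, while 9 were lower at any size (51.7% of all genes), with a median of -0.43 against -0.02. Mcm7 and Pcna were the exceptions among the 10, since both had a higher deposited FPKM in adult than in d12 testis, although not with libraries set to the same FPKM sum.

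Mcm2 was at 28.9 FPKM at d12, then 18.7 at d16, 7.99 at d24 and 5.16 in the adult, from 1220, 786, 592 and 155 fragments. Mcm4 was at 21.2, 14.6, 6.99 and 4.50 FPKM. These subunits were the lowest of the helicase at all 4 ages, and they showed the steepest fall. The d12 level of Mcm2 was 5.60 times its adult level (4.74 to 6.67), and that of Mcm4 was 4.72 times its adult level (3.96 to 5.67).

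Mcm5 was at 33.4, 26.9, 12.9 and 9.08 FPKM at d12, d16, d24 and in the adult. Mcm6 was at 39.7, 30.7, 16.8 and 11.8 FPKM. Mcm3 was at 48.4, 42.9, 21.9 and 15.1 FPKM. All 3 were lower at each later age, and their intervals at the 4 ages did not overlap. The d12 level was 3.68 times the adult level for Mcm5 (3.24 to 4.20), 3.35 times for Mcm6 (2.96 to 3.80) and 3.20 times for Mcm3 (2.88 to 3.58). The order Mcm3, Mcm6, Mcm5, Mcm2, Mcm4 from high to low was the same in each of the 4 libraries. The Mcm2 and Mcm4 intervals overlapped at d24 and in the adult, so these neighbours cannot be ordered there.

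The loss of the Mcm2 to Mcm6 transcripts was largest between d16 and d24. Over that step the earlier level was 2.33 times the later one for Mcm2 (2.09 to 2.60), 2.09 times for Mcm4 (1.87 to 2.35) and 2.09 times for Mcm5 (1.91 to 2.28). It was 1.96 times for Mcm3 (1.83 to 2.11) and 1.83 times for Mcm6 (1.68 to 1.99), both just under the 2-fold limit. Between d12 and d16 the subunits already differed among themselves. Mcm2 at d16 was at 64.5% of its d12 level, whereas Mcm3 was at 88.7%. In a bulk sample such as this, fewer cells of a type and less RNA per cell cannot be told apart.

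Mcm7, the remaining subunit of the ring, was at 47.2 FPKM at d12, then 55.0 FPKM at d16, 88.9 FPKM at d24 and 74.5 FPKM in the adult, from 1385, 1611, 4575 and 1556 fragments. The highest value was that of d24, and no pair of neighbouring ages had overlapping intervals. Mcm7 at d24 was 1.62 times its d16 level (1.53 to 1.71) as deposited, 1.32 times with libraries set to the same upper quartile and 1.05 times with libraries set to the same FPKM sum. In the adult it was 1.58 times its d12 level (1.47 to 1.70) in the deposited FPKM, although it was 0.998 times that of d12 with the same upper quartile and 0.679 times with the same FPKM sum.

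**Figure D1:**
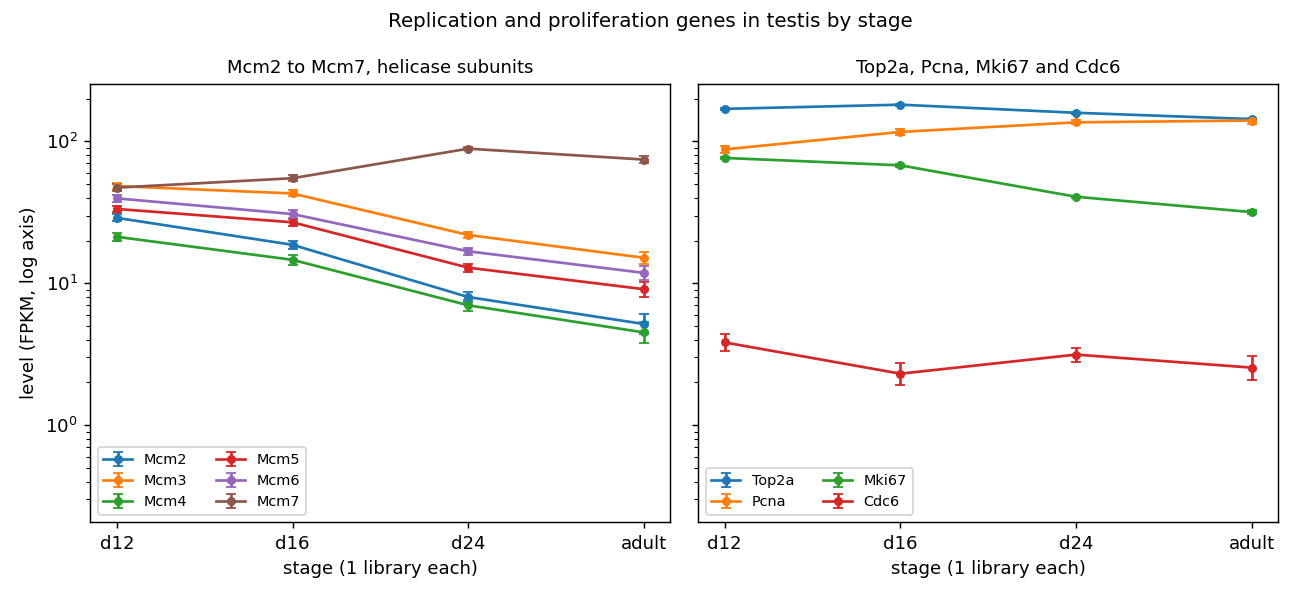
FPKM of the 10 genes (log axis) at d12, d16, d24 and in the adult, 1 library per age, with bars for the exact 95% counting intervals. Mcm2 to Mcm6 and Mki67 go down from age to age, Mcm7 and Pcna end above their d12 values of 47.2 and 87.8 FPKM as deposited (not with libraries set to the same FPKM sum, nor Mcm7 with the same upper quartile), and Cdc6 lies under 4 FPKM throughout.

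Ratios between genes of the same library do not depend on how libraries are scaled, so the makeup of the helicase transcripts was read within each library. Mcm7 made up 21.6% of the summed Mcm2 to Mcm7 FPKM at d12, then 29.1% at d16, 57.2% at d24 and 62.0% in the adult. The share of Mcm2 went from 13.2% at d12 to 4.29% in the adult, and that of Mcm4 from 9.71% to 3.75%. From d24 on, Mcm7 thus held more of the sum than the other 5 subunits together.

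The ratio of Mcm7 to Mcm3, the most abundant of the other subunits, was 0.975 at d12 (0.908 to 1.05), which includes equal levels. It was 1.28 at d16 (1.19 to 1.37), 4.06 at d24 (3.83 to 4.31) and 4.93 in the adult (4.41 to 5.51). Against Mcm2 the ratio of Mcm7 went from 1.63 at d12 (1.51 to 1.77) to 14.4 in the adult (12.2 to 17.1). Among Mcm2 to Mcm6, by contrast, the highest level was 2.28 times the lowest at d12 and 3.36 times in the adult. With Mcm7 included, the highest was still 2.28 times the lowest at d12, where Mcm7 lay within the range of the others, but 12.7 times at d24 and 16.5 times in the adult.

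**Figure D2:**
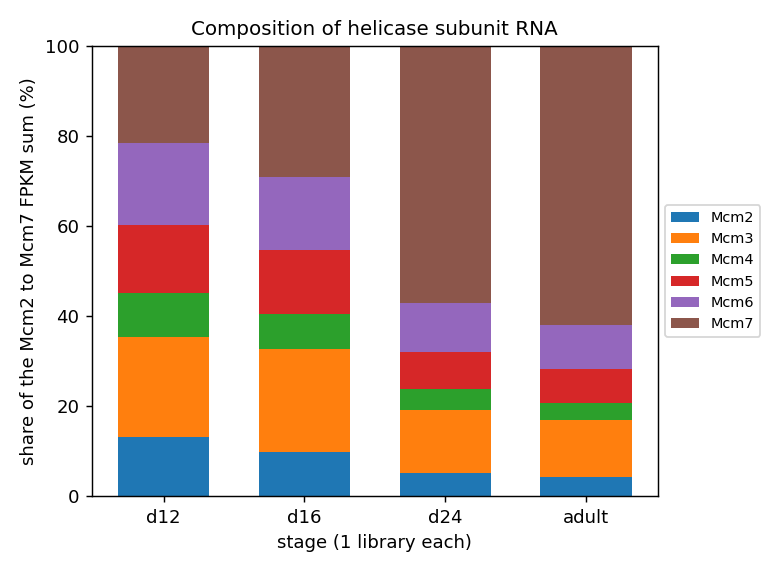
Share of each subunit in the summed FPKM of Mcm2 to Mcm7 (percent) in the libraries of d12, d16, d24 and adult testis. The Mcm7 share is 21.6% at d12 and 62.0% in the adult, and it does not change with the scaling between libraries.

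The deposited FPKM sum to 283580 at d12 and 659202 in the adult, so the direction of a moderate change depends on the scaling. Setting all libraries to the same FPKM sum moves the median log2 change of all genes from d12 to adult by -1.20, and setting them to the same upper quartile moves it by -0.65. Scaling by the median ratio to the geometric mean moves it by 0.0096. Of all calls of at least 2-fold in that comparison, 39.3% were lower as deposited, 57.7% with the same upper quartile and 68.3% with the same sum. Taken relative to the median of all genes, which such scaling leaves nearly in place, the log2 change from d12 to adult was -2.66 for Mcm2, -2.42 for Mcm4, -2.07 for Mcm5, -1.94 for Mcm6, -1.87 for Mcm3 and -1.47 for Mki67. It was -0.77 for Cdc6, -0.44 for Top2a, 0.46 for Mcm7 and 0.47 for Pcna. Relative to the median gene, Mcm7 and Pcna were therefore higher and the other 8 lower in the adult. The scalings multiply all genes of a library alike, so this holds under each of them by construction and does not check the direction.

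**Figure D3:**
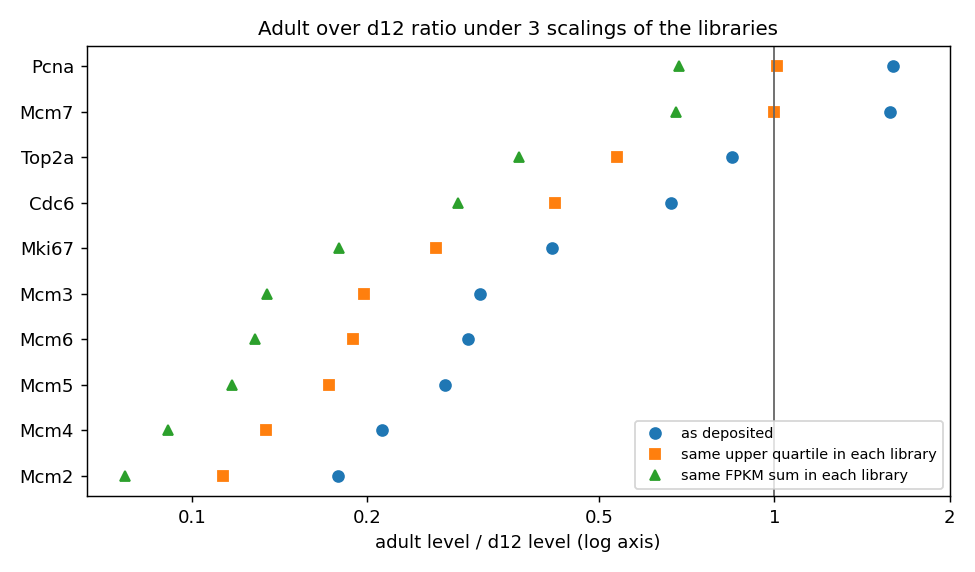
Ratio of adult to d12 FPKM for each of the 10 genes (log axis) with the deposited values (circles) and with libraries rescaled to the same upper quartile (squares) or the same FPKM sum (triangles). Mcm2 to Mcm6, Mki67, Cdc6 and Top2a lie below 1 under each scaling, whereas Mcm7 is at 1.58 as deposited and 0.679 with the same sum, and Pcna at 1.60 and 0.687.

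In the RefSeq annotation of GRCm38.p6, the 6 helicase genes lie on 5 chromosomes. Mcm3 (chr1:20802966-20820312) and Mcm6 (chr1:128331575-128359705) share chromosome 1, and Mcm7 (chr5:138164583-138172111), Mcm2 (chr6:88883474-88898780), Mcm5 (chr8:75109468-75128439) and Mcm4 (chr16:15623897-15637400) lie apart. Mcm5 is on the plus strand and the others are on the minus strand. The 250 bases before the transcript start are printed for Mcm5 and Mcm6, the subunits with more than 1 match to an E2F site, and for both curated starts of Mcm7, with the matches in capitals. E2F factors switch on many S phase genes, and the letters searched on both strands were TTTCGCGC, TTTGGCGC, TTTCCCGC and TTTGCCGC.
Mcm5 (chr8:75109259-75109508, plus strand): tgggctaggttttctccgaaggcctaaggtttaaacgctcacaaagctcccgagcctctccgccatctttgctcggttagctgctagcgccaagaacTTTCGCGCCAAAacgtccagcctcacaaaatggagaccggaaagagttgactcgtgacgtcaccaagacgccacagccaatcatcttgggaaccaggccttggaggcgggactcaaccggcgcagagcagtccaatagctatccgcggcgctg
Mcm6 (chr1:128359706-128359955, minus strand): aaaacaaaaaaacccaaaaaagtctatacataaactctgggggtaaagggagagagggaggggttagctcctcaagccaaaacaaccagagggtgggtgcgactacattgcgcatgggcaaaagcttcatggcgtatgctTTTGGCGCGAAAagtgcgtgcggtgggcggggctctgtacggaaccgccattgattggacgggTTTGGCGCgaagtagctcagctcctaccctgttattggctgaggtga
Mcm7, upstream start (chr5:138171884-138172133, minus strand): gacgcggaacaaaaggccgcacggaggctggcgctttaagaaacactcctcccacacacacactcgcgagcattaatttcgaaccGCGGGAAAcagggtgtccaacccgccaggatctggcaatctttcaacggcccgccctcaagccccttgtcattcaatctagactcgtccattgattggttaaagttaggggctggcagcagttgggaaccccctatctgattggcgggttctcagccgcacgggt
Mcm7, downstream start (chr5:138171267-138171516, minus strand): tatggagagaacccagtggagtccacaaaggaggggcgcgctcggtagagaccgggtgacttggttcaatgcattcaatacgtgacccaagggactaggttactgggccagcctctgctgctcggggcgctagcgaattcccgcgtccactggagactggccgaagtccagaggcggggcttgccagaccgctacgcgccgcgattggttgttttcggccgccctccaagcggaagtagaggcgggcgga

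Mcm5 held 2 matches, which overlap, and Mcm6 held 3, of which 2 overlap. The window of the upstream Mcm7 start held 1 match, and that of the downstream start held 0. Of the 9 genes with a promoter entry, 4 held a match (Cdc6, Mcm5, Mcm6 and Mcm7), against 1.86% of the 32851 windows of the RefSeq promoter table. Mcm2, Mcm3, Pcna, Mki67 and Top2a had 0 matches to these letters, and for Mcm4 there was no entry. A match is a run of letters and not a measured binding site, and the deposited table has 1 value per gene, so the output of the 2 Mcm7 starts cannot be told apart.

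The upstream start of Mcm7 lies 138 bp from the start of Ap4m1, a subunit gene of an adaptor complex for vesicle transport that is transcribed in the other direction. Ap4m1 was at 4.00, 4.94, 11.3 and 11.4 FPKM at d12, d16, d24 and in the adult, and its adult level was 2.86 times its d12 level as deposited. Mcm4 starts 466 bp from Prkdc, the catalytic subunit of the DNA-dependent protein kinase, which was at 11.96, 9.50, 5.19 and 6.08 FPKM. On the deposited scale, each neighbour had its largest step between d16 and d24, in the same direction as the helicase gene beside it. Among all genes this was also the step with the most calls of at least 2-fold (8.45% lower and 27.5% higher). From d24 to adult the shared direction did not hold. Prkdc rose while Mcm4 fell from 6.99 to 4.50 FPKM, and Ap4m1 hardly changed while Mcm7 fell from 88.9 to 74.5. These were the only divergent genes with a start within 1 kb of any of the 10, and they were named after their values were seen.

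Cdc6, the loading factor, was the lowest of the 10 genes in every library. It was at 3.82 FPKM at d12 (3.34 to 4.36), then 2.30 at d16 (1.93 to 2.73), 3.14 at d24 (2.81 to 3.50) and 2.54 in the adult (2.08 to 3.07), from 224, 134, 322 and 106 fragments. The level at d16 was 0.602 times that at d12 (0.480 to 0.746). The step from d16 to d24 was a ratio of 1.36 (1.11 to 1.69) in the deposited FPKM, although its log2 change was -0.17 with libraries set to the same FPKM sum. The ratio of adult to d24 was 0.809 with an interval of 0.645 to 1.01, which includes 1. Relative to the median of all genes, the step from d16 to d24 was 0.30 on the log2 scale for Cdc6 and -1.34 for Mcm2.

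Pcna, the sliding clamp on chromosome 2 (chr2:132249286-132253180, minus strand), was at 87.8 FPKM at d12, then 116.6 at d16, 136.3 at d24 and 140.3 in the adult. The step from d12 to d16 was a ratio of 1.33 (1.24 to 1.42), the largest step on the deposited scale. That from d16 to d24 was a ratio of 1.17 (1.105 to 1.24) as deposited, but was below 1 with the same upper quartile or the same FPKM sum. The ratio of adult to d24 was 1.03 (0.970 to 1.09) as deposited, with an interval that includes 1, whereas the log2 change was -0.20 with the same upper quartile and -0.44 with the same FPKM sum. The adult level was 1.60 times that of d12 (1.48 to 1.72) as deposited, 1.01 times with the same upper quartile and 0.687 times with the same FPKM sum. With the median ratio to the geometric mean, Pcna at d24 was 1.18 times its d16 level, and in the adult 1.61 times its d12 level. Within a library, the ratio of Pcna to Mcm2 was 3.04 at d12 (2.81 to 3.29), then 6.25 at d16 (5.75 to 6.81), 17.0 at d24 (15.6 to 18.6) and 27.2 in the adult (23.1 to 32.3). The bases before the Pcna start held no match to the E2F letters above and are printed beside those of the helicase genes for comparison.
Pcna (chr2:132253181-132253430, minus strand): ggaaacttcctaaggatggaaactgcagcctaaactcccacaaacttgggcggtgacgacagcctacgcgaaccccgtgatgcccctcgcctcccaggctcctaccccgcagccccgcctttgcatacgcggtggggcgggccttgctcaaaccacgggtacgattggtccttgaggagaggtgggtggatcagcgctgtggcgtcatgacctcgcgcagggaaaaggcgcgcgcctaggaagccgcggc

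Pcna and Mcm7 were also the only genes among the 10 with a near copy elsewhere in the genome, at 95% identity or more over 80% of the transcript or more. For Pcna this is the pseudogene Pcna-ps2 (chr19:9283238-9284495), 99.3% identical over 99.8% of the transcript, which shares 66.5% of its stretches of 50 bases, the length of 1 read. For Mcm7 it is the pseudogene Gm5487 (chr16:53983958-53986207), 97.7% identical over 82.7% of the transcript, which shares 29.1% of the stretches. Neither pseudogene is listed in the table. Partial copies were found for Cdc6, at 3 places on chromosome X that are 94.6% to 95.6% identical over 21.6% to 40.7% of the transcript, and for Mcm4, at 1 place on chromosome 17 that is 91.2% identical over 51.7%. The stretches they share were not counted. Since 1 alignment was kept per read pair, the levels of genes with copies are less certain, and the part of the copies in them was not tested.

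Mki67, the Ki-67 gene on chromosome 7 (chr7:135689784-135716450, minus strand), was at 76.4 FPKM at d12, then 67.8 at d16, 40.7 at d24 and 31.7 in the adult, from 9642, 8534, 9002 and 2850 fragments. It was lower at each later age, and no intervals overlapped. The d12 level was 2.41 times the adult level (2.31 to 2.51), a smaller fall than that of any of Mcm2 to Mcm6. The ratio of Mki67 to Mcm2 within a library accordingly went from 2.65 at d12 (2.49 to 2.81) to 6.15 in the adult (5.23 to 7.28).

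Top2a, on the minus strand of chromosome 11 (chr11:98992947-99024199), was at 169.6 FPKM at d12, then 181.5 at d16, 159.1 at d24 and 143.6 in the adult. It had the highest level of the 10 genes in every library, and in the deposited FPKM its level differed least between d12 and adult. The d12 level was 1.18 times the adult level (1.15 to 1.22). The ratio of Top2a to Mki67 went from 2.22 at d12 (2.16 to 2.28) and 2.68 at d16 (2.60 to 2.75) to 3.91 at d24 (3.81 to 4.01) and 4.53 in the adult (4.33 to 4.73). These proliferation markers therefore did not keep a fixed ratio. Top2b, the paralog that also serves cells outside the cycle, was at 65.9, 70.8, 30.9 and 24.98 FPKM, and Top2a was 2.57 times Top2b at d12 and 5.75 times in the adult. Top2a lies 69004 bp from Cdc6 on the same chromosome (chr11:98907709-98923942, plus strand), with a level many times that of Cdc6.

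The windows before Mki67 and Top2a are printed because both hold the letters TTTGAA (capitals, either strand), the core of the cell cycle homology region, or CHR, an element of genes expressed late in the cell cycle.
Mki67 (chr7:135716380-135716629, minus strand): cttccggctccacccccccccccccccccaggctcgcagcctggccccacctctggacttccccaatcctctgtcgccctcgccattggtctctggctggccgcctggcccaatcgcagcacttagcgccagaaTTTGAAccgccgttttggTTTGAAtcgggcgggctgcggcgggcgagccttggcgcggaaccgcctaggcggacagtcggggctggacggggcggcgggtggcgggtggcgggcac
Top2a (chr11:99024190-99024439, minus strand): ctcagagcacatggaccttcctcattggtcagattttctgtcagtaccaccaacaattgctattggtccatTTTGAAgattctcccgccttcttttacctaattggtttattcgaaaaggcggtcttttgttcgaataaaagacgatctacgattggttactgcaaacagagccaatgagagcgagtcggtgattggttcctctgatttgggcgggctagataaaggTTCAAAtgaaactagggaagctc

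Each of these windows held 2 matches. Of the 10 windows of the 9 genes with an entry, 3 held a CHR match (Mcm2, Mki67 and Top2a), against 15.99% of all windows. The E2F and CHR letters were not found together before any of the 9 genes. The letters CCAAT, the box bound by NF-Y, stood on either strand in 9 of the 10 windows, against 33.8% of all windows. There were 6 matches before Top2a and 0 before Cdc6. Mcm2 and Top2a both had a CHR match, and their d12 levels were 5.60 and 1.18 times their adult levels.

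From high to low, the 10 genes stood in the order Top2a, Pcna, Mki67, Mcm3, Mcm7, Mcm6, Mcm5, Mcm2, Mcm4, Cdc6 at d12. The only change in this order was that Mcm7 passed Mcm3 at d16 and Mki67 at d24, and the adult order was that of d24. Of the 9 pairs of neighbours, Mcm3 and Mcm7 overlapped at d12, none overlapped at d16, Mcm2 and Mcm4 overlapped at d24, and both Top2a and Pcna and Mcm2 and Mcm4 overlapped in the adult. The highest gene was 44.3 times the lowest at d12 and 56.5 times in the adult. Among all listed genes, Mcm2 stood above or level with 91.5% at d12 and 61.8% in the adult, while Mcm7 stood at 95.4% and 92.4% and Top2a at 99.2% and 96.1%.

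A list of 67 other replication genes was read beside the 10. From d12 to adult 21 of the 67 fell and 10 rose by at least 2-fold, against 23.1% and 35.7% of all genes, with a median log2 change of -0.16 that lay between that of all genes and that of the 10. From d16 to d24 6 fell and 6 rose, against 8.45% and 27.5% of all genes, with a median of -0.20. From d12 to d16 0 of 67 fell (3.67% of all genes) and 0 rose (12.6%) by at least 2-fold. In the step from d24 to adult 0 of 67 fell (2.2% of all genes) and 0 rose (11.4%). With libraries set to the same FPKM sum, 42 of the 67 fell and 4 rose from d12 to adult, against 49.9% and 23.2% of all genes. The counts of the groups that follow are those of the deposited scale from d12 to adult, to be read beside the 23.1% of all genes that fell and the 35.7% that rose.

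Of 9 licensing genes 4 fell and 0 rose from d12 to adult. Mcmbp, which binds the helicase subunits, was at 20.5 and 5.02 FPKM at these ages and Cdt1, the partner of Cdc6 in loading, at 2.59 and 0.614 FPKM, whereas the origin recognition subunits Orc5 (9.07 and 18.1) and Orc3 (10.7 and 10.3) stayed within the 2-fold limit. Of 14 genes of origin firing 2 fell, Wdhd1 (33.5 and 7.79 FPKM) and Cdc7 (13.9 and 6.54), and 2 rose, Donson (9.04 and 39.9) and Mtbp (17.7 and 36.4), of which Mtbp was at 0.884 times its d12 level with the same FPKM sum. Cdc7 is the kinase that activates the loaded helicase.

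Of 12 polymerase genes 4 fell and 2 rose. Pola1, the catalytic subunit of polymerase alpha, was at 19.3 FPKM at d12 and 3.50 in the adult, and its primase partner Prim1 at 25.7 and 7.10. The accessory subunits Pold3 (20.4 and 85.3 FPKM) and Pole3 (103.8 and 402.7) rose. Of 14 genes of clamp loading and Okazaki fragment processing 4 fell and 2 rose. Rnaseh2a, the catalytic subunit of ribonuclease H2, was at 6.52 FPKM at d12 and 139.1 in the adult, and the clamp loader subunit Rfc2 at 14.4 and 88.4. Rnaseh2b (15.1 and 2.92 FPKM) and Atad5 (21.1 and 5.98), which unloads Pcna, fell.

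Of 6 fork protection genes 3 fell, among them Clspn (32.7 and 8.67 FPKM) and Rpa3 (24.4 and 8.09), while Rpa1, the large subunit of the protein that coats single-stranded DNA, rose from 20.6 to 76.6 FPKM. Tipin was at 95.2 and 81.3 FPKM. Of 7 genes of nucleotide supply 4 fell, among them Tyms (5.44 and 1.00 FPKM), which makes thymidylate, and 1 rose, Dtymk (24.6 and 64.5). Dut was at 22.5 and 32.0 FPKM. Of 5 genes of chromatin assembly behind the fork 0 fell and 2 rose, Chaf1a (12.8 and 103.1 FPKM) and the histone chaperone Nasp (271.7 and 1296). Chaf1b (5.89 and 6.33) and Asf1b (17.6 and 16.9) differed little.

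The split of 1 subunit from its partners, as in Mcm7, was then read for 10 complexes, a grouping chosen after the values were seen. The adult to d12 ratio of the highest subunit divided by that of the lowest does not depend on the scaling between libraries. It was 8.84 for Mcm2 to Mcm7. It was 109.9 for ribonuclease H2, 19.8 for replication factor C, 11.2 for replication protein A and 9.34 for polymerase delta. It was 8.47 for polymerase epsilon, 7.76 for polymerase alpha with primase, 7.47 for the large subunits of chromatin assembly factor 1, 4.89 for the origin recognition complex and 2.19 for GINS. The helicase stood in the middle of these 10 values, and 9 of the 10 were above 4. Among all genes 23.1% fell and 35.7% rose by at least 2-fold, and spans were not computed for sets of other genes. The sets also hold 2 to 6 subunits, and a span can only widen as subunits are added. The values therefore only describe these complexes, and their ranks cannot be compared closely.

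**Figure D4:**
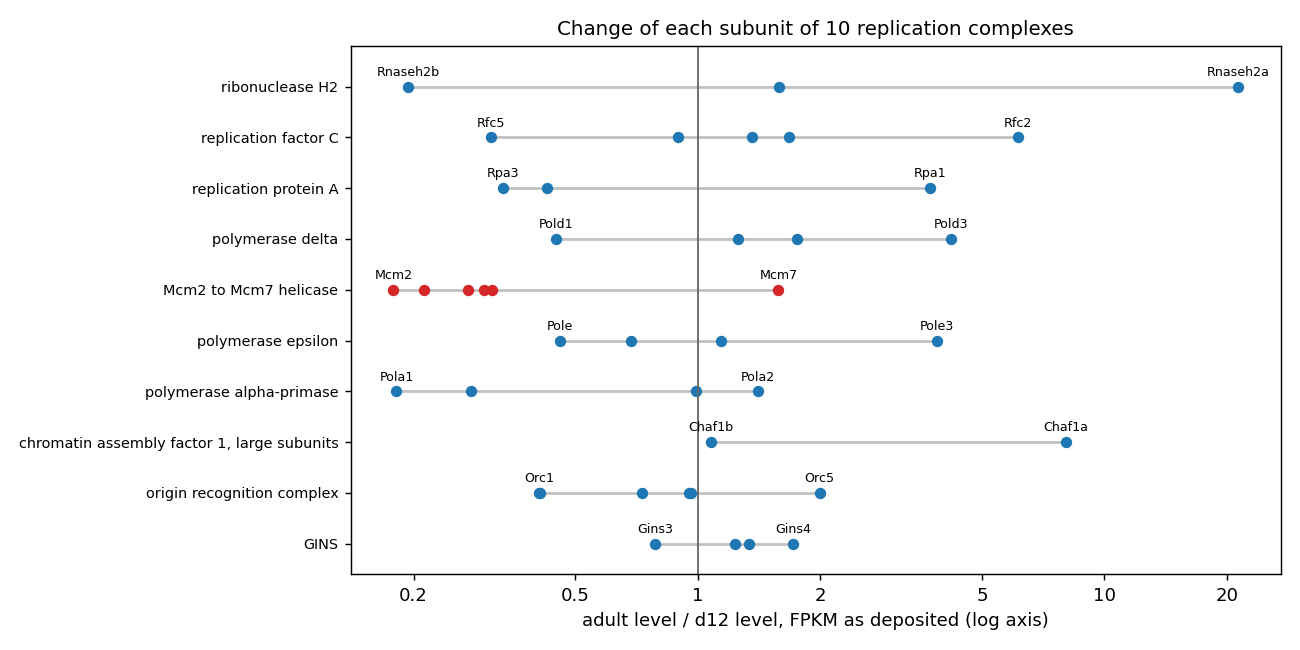
Ratio of adult to d12 FPKM (log axis) of each subunit of 10 replication complexes, 1 point per gene, with the lowest and highest subunit named. Ribonuclease H2 spans a factor of 109.9, Mcm2 to Mcm7 span 8.84 with Mcm7 alone above its partners, and GINS spans 2.19. The position of all points against 1 moves with the scaling, while the spans do not.

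Paralogs of the helicase subunits were read as well. Mcm8, which acts with Mcm9 in repair by recombination, was at 11.3, 8.87, 5.75 and 5.27 FPKM at the 4 ages. Mcm9 was at 3.75, 4.30, 4.09 and 3.24 FPKM. Mcmdc2, which is needed for meiotic recombination, was at 2.60, 5.01, 4.44 and 3.69 FPKM. Of these and Top2b, 2 of 4 fell by at least 2-fold from d12 to adult, Mcm8 and Top2b.

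Genes of mitosis had a median change above that of all genes, whereas that of Mki67 lay below it. Of 24 in the list 2 fell and 7 rose by at least 2-fold from d12 to adult, against 23.1% and 35.7% of all genes, with a median log2 change of 0.44 against 0.20 for all genes. From d16 to d24, where Mki67 was lower, 1 of 24 fell and 6 rose, against 8.45% and 27.5% of all genes, with a median of 0.39 against 0.13. Aurka, a spindle kinase, was at 13.4 FPKM at d12 and 124.4 in the adult, and the kinase Plk1 at 7.72 and 27.5, whereas Cenpa, the centromeric histone, went from 15.2 to 3.19 and Ccna2, the cyclin A of somatic cells, from 20.7 to 5.59. With libraries set to the same FPKM sum, 10 of the 24 fell and 1 rose from d12 to adult, against 49.9% and 23.2% of all genes.

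Of 12 regulators of the entry into S phase, 11 passed the limit of 1 FPKM, and 4 of these fell and 1 rose from d12 to adult, against 23.1% and 35.7% of all genes. The D cyclins moved apart. Ccnd2 was at 9.45 FPKM at d12 and 1.20 in the adult and Ccnd1 at 10.9 and 2.78, whereas Ccnd3 was at 4.06 and 19.6. Rbl1, a pocket protein that holds E2F factors in check, was at 11.7 and 14.7 FPKM. Of 7 inhibitors of cyclin-dependent kinases, read beside the same shares, 2 fell, Cdkn2a (4.13 and 0.845 FPKM) and Cdkn1b (9.89 and 3.68), and 2 rose, Cdkn2c (7.48 and 56.9) and Cdkn2d (10.6 and 37.6).

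Markers of several testis cell types were lower at later ages, as were Mcm2 to Mcm6, but not Mcm7 and Pcna on the deposited scale. The 5 genes Mcm2 to Mcm6 summed to 171.6 FPKM at d12, then 133.8 at d16, 66.5 at d24 and 45.7 in the adult, 3.76 times as much at d12 as in the adult. The 6 spermatogonia markers (Zbtb16, Gfra1, Kit, Dmrt1, Sall4 and Sohlh1) summed to 121.9, 74.2, 36.9 and 26.2 FPKM, 4.66 times as much at d12, and 5 of the 6 fell by at least 2-fold. Gfra1 was the exception, at 1.20 FPKM at d12 and 2.41 in the adult. Most of the spermatogonia sum was Dmrt1, at 77.4 FPKM at d12 and 14.8 in the adult.

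Markers of Sertoli and peritubular cells were also lower at each later age. The 6 Sertoli cell markers summed to 175.7, 132.8, 81.0 and 60.6 FPKM, 2.90 times as much at d12 as in the adult, with Amh, the Sertoli cell hormone of the young testis, listed at 0 in the adult. The 4 peritubular markers summed to 243.3 FPKM at d12 and 79.9 in the adult, and the 4 endothelial markers to 19.3 and 7.44. The macrophage markers summed to 22.7 and 21.9 FPKM, and the 6 of Leydig cells to 92.8 and 549.0. Most of the adult Leydig sum was Insl3 (17.5 and 272.8 FPKM) and Cyp17a1 (39.6 and 181.9). Of the 6 Leydig markers 5 were higher in the adult and 1 lower, Star, at 18.8 and 15.1 FPKM. The 6 markers of early meiosis summed to 680.7, 1242, 832.0 and 779.0 FPKM. Most of this was Sycp3, at 413.8 FPKM at d12 and 507.4 in the adult. From d12 to adult 3 of the 6 fell by at least 2-fold and 1 rose, against 23.1% and 35.7% of all genes. Stra8 (86.4 and 12.3 FPKM), Dmc1 (45.7 and 12.4) and Prdm9 (15.7 and 6.19) fell, and Spo11 (3.76 and 23.5) rose. The part of these cell types in the course of the 10 genes was not tested.

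**Figure D5:**
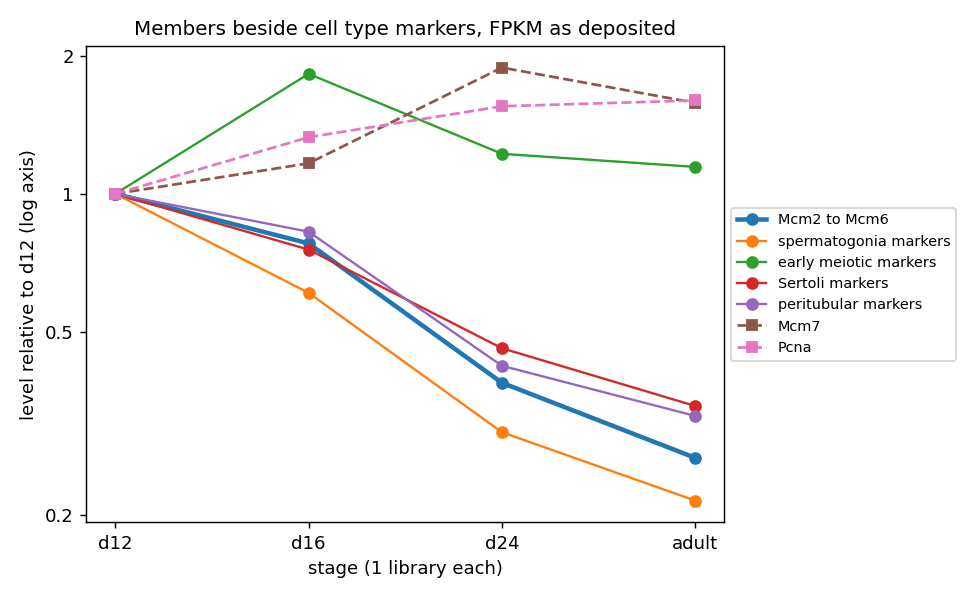
Summed FPKM of Mcm2 to Mcm6 and of 4 marker lists of testis cell types (solid lines), and FPKM of Mcm7 and Pcna (dashed lines), each divided by its own d12 value (log axis), at the 4 ages on the deposited scale. In the adult the Mcm2 to Mcm6 sum, at 45.7 FPKM against 171.6 at d12, lies between the spermatogonia markers (26.2 against 121.9) and the Sertoli markers (60.6 against 175.7) in relative level. Most of the spermatogonia sum is Dmrt1 and most of the early meiotic sum is Sycp3, so these lines mainly show 1 gene each.

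The genes most like the 10 in their course were looked for among 9474 genes whose mean reached 5 FPKM, by the Euclidean distance of centred log2 profiles over the 4 ages to the median profile of the 10. The nearest 5 were Cst12, Nr1d2, Rab12, Tnrc6a and Suv420h1, at distances of 0.0364 to 0.0572. Cst12 was at 342.1, 298.4, 166.6 and 124.7 FPKM, and Nr1d2 at 21.2, 17.9, 10.1 and 7.52. With only 4 ages many genes lie close, and by Pearson correlation just 1 of these 5, Nr1d2, was again among the nearest 5.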

How the data were processed

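Total RNA from testis was sequenced as strand-specific libraries of read pairs of 50 bases. The authors aligned them with TopHat2 2.1.0, which ran Bowtie 1.1.2, on the GRCm38/mm10 genome, supplied RefSeq gene models and retained a single alignment for each pair. The deposited FPKM values were computed by the authors with Cuffdiff of Cufflinks 2.2.1, with correction for multi-reads and for sequence bias and without effective length correction. The scaling between libraries and the annotation release are not given in the sources used here. Rescaling by the median ratio to the geometric mean moved the median log2 change of all genes most from d16 to d24, by 0.012. The deposited values were thus already close to that scaling.

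Ratios, log2 changes (pseudocount of 0.1 FPKM) and calls of at least 2-fold were computed in python 3.11.15 (with scipy 1.17.1, pandas 2.3.3 and numpy 2.4.6), and figures were drawn with matplotlib 3.10.9. Fragments were recovered from FPKM, transcript length and the value of 1 fragment, using 14604 genes with 1 curated transcript. Of values up to 20 fragments, 91.8% to 92.4% lay within 0.05 of a whole number. This step, tested on simulated data for 14604 genes, came within 1 percent of the true value in 4 of 4 libraries. Where curated transcripts differed in length by a factor above 1.1 (Mcm6 and Mcm7), the shortest was used, which gives the widest intervals. Promoters, positions and transcripts were those of RefSeq on GRCm38.p6, and copies were searched with blastn 2.17.0.

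The 10 genes and all lists were chosen with earlier results of these data known. The genes named are the 10, the paralogs, cell type markers, the 5 genes of most similar course, and in each other list the 2 with the highest and the 2 with the lowest log2 change from d12 to adult among those with a mean of at least 1 FPKM. Of the genes this rule picks, 1 is not reported here. Alternatives were other scalings, pseudocounts, filters, a fold of 1.5, the longest transcript, and correlation in place of distance. With 1 library per stage no test was made.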

Additional observations from a re-analysis of the deposited data

How the results depend on the processing

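Of 369 recalculated values for 81 results, 242 moved by less than the limits set, 119 moved by more and 8 changed the direction of a value whose counting interval did not include 1. With libraries set to the same FPKM sum, the log2 changes that turned were those of Top2a from d12 to d16 (-0.021), Cdc6 (-0.17) and Pcna (-0.39) from d16 to d24, and Mcm7 (-0.56) and Pcna (-0.54) from d12 to adult. With the same upper quartile they were those of Top2a from d12 to d16 (-0.036), Pcna from d16 to d24 (-0.062) and Mcm7 from d12 to adult (-0.0023). The Pcna change from d24 to adult, whose interval includes 1 as deposited, also turned, to -0.44 with the same sum and -0.20 with the same upper quartile. These scalings multiply all genes of a library alike, so the turns follow from their construction. With the median ratio to the geometric mean, all recalculated values stayed within the limits set. In the order d12 to d16, d16 to d24, d24 to adult and d12 to adult, the median log2 change of the 10 genes was -0.36, -1.42, -0.90 and -2.68 with the same sum, and -0.38, -1.09, -0.67 and -2.13 with the same upper quartile. Of all genes tested, 5.78%, 30.2%, 10.0% and 49.9% fell at least 2-fold in these 4 comparisons with the same sum. With the same upper quartile 5.70%, 17.0%, 4.13% and 37.9% fell. The counts that follow are to be read beside these shares. Of the 10 genes, 6 fell at least 2-fold from d16 to d24 under both scalings, and 3 from d24 to adult with the same sum. Of the 67 replication genes, 3, 26, 13 and 42 fell in the 4 comparisons with the same sum, and 3, 14 and 1 in the first 3 with the same upper quartile. Of the 24 mitosis genes, 1, 2, 1 and 10 fell with the same sum, and 1 and 2 in the first 2 comparisons with the same upper quartile. Of all calls of at least 2-fold, the share that was lower was 22.5%, 23.5% and 16.2% as deposited in the first 3 comparisons, 33.1%, 61.0% and 60.1% with the same sum, and 33.2%, 42.2% and 32.2% with the same upper quartile. A lower fold of 1.5 takes in more genes by construction, and in the first 3 comparisons 2, 6 and 2 of the 10 genes, 8, 19 and 12 of the 67, and 1, 2 and 1 of the 24 fell by it. The share of all genes past a fold of 1.5 was not computed, so these counts cannot be set against it. A pseudocount of 1 FPKM left 0 of the 24 lower from d16 to d24. A filter of at least 5 FPKM leaves out Cdc6 and gave a median of -1.67 from d12 to adult. By fragments over the longest transcript, the Mcm7 share was 20.4% at d12 and 27.7% at d16. Of the shares of the other subunits, 18 moved beyond the limits set and 2 did not. Mcm6 has curated transcripts of 2966 and 4431 bp, so its share and its place in the order depend on the length used. By distance to the median course of Mcm2 to Mcm6 alone, a choice made after the values were seen, the nearest gene was Fermt2. No paired analysis was possible because each stage has 1 library and the labels number no replicates, and for the same reason no replicate could be left out. The depth limits Cdc6, Mcm2 and Mcm4 most, with 106, 155 and 144 fragments in the adult.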
